A study of Mus musculus with 6 samples.

Results

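The IL-2 receptor, its kinases, the STAT5 factors and the feedback genes they induce were compared in Zfp335-deficient and control Tregs. These were 10 genes, chosen by symbol, of 32285 rows in the deposited count table, and all 10 passed the expression filter. They comprised the receptor chains *Il2ra*, *Il2rb* and *Il2rg*, the kinases *Jak1* and *Jak3*, the transcription factors *Stat5a* and *Stat5b*, and the feedback genes *Socs1*, *Socs2* and *Cish*. IL-2 binds a receptor made of a high-affinity α chain (CD25), a β chain and the common γ chain. The JAK1 and JAK3 kinases attached to the β and γ chains phosphorylate STAT5, which enters the nucleus and activates *Foxp3*, *Il2ra* and its own inhibitors of the SOCS family. Tregs make little IL-2 themselves and depend on this pathway for their maintenance.

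Bulk RNA-Seq was performed on splenic CD4+CD25+ Tregs of C57BL/6 mice, with 3 libraries of WT and 3 libraries of KO cells. KO cells came from ERCre Zfp335fl/fl mice. The methods text describes the WT animals as ERCre mice. Tamoxifen (10 mg/mL) was given at 6 weeks of age on days 1, 3 and 5, and cells were taken on day 7. The sample labels call the WT animals wild-type littermates and mention neither tamoxifen nor Cre in them. Because ERCre acts in every tissue of the animal, Zfp335 was not deleted in Tregs alone. The cells were sorted on CD25, the protein product of *Il2ra*, so cells with little CD25 were not sampled in either group. The labels do not state that libraries of a group came from separate animals, and p-values therefore measure only the spread between these libraries, which may be technical.

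*Zfp335* itself was 124, 121 and 115 CPM (counts per 1000000) in WT replicates 1, 2 and 3 and 15.0, 14.3 and 15.1 CPM in KO replicates 1, 2 and 3. It fell by 3.02 on the log2 scale (SE 0.046, adjusted p = 1.2e-13). The libraries held between 133283969 and 209041812 counts, and TMM scaling factors lay between 0.987 and 1.014. A gene is said here to be called, to rise or to fall where its adjusted p was under 0.05. Of 7 Treg and T cell markers, 2 rose, 1 fell and 4 were not called, with sums of 3353 to 3372 CPM in WT and 3475 to 3529 CPM in KO. The higher sum in KO rests on *Ctla4* (means of 410 CPM in WT and 645 CPM in KO). All KO libraries lay below WT for 4 of the 7 markers and above WT for 2, beside 19.1% and 19.3% of all genes tested. *Foxp3*, which defines Tregs, fell by 0.11 on the log2 scale (WT mean 1136 ± 17.4, KO mean 1052 ± 9.24 CPM, SD, n = 3 each, adjusted p = 0.0163), and *Ctla4*, an inhibitory receptor, rose by 0.65 (adjusted p = 9.56e-09). The call of *Foxp3* was lost in the 3 fits that left out KO replicate 1, 2 or 3 (adjusted p up to 0.0922), and *Ctla4* was called under all 18 alternatives. The other marker that rose was *Tnfrsf18*, which encodes GITR (0.12), a call lost under 7 of 18 alternatives, among them the fits without WT replicate 2 or KO replicate 1, 2 or 3 (adjusted p up to 0.212). All 4 B cell markers fell, from *Cd79b* (-0.51) to *Ms4a1* (-1.72), and their summed level was 38.5 to 42.4 CPM in WT and 19.1 to 20.8 CPM in KO. Of 6 myeloid markers, 5 fell, the lowest being *Ngp* (-4.70), while *Csf1r* was not called (0.22), and the sums were 43.0 to 51.0 CPM in WT and 20.3 to 22.1 CPM in KO. All 3 red cell markers fell, from *Alas2* (-1.57, a call lost without WT replicate 2, adjusted p = 0.0618) to *Hbb-bs* (-4.50), with sums of 26.3 to 30.8 CPM and 1.31 to 1.59 CPM. Of the 4 markers of CD8 T and NK cells, 0 were called by edgeR, and 0 also at an unadjusted p under 0.05 or by DESeq2 or limma-voom (*Klrb1c* 0.12, *Ncr1* -0.44). Among 4 markers of conventional CD4 T cells, which ranged from *Il7r* (-0.081) to *Il2* (0.57), only *Tcf7*, a T cell transcription factor, rose (0.11, adjusted p = 0.0394, named after its value was seen). Its call was lost under 9 of 18 alternatives, among them 5 of the 6 fits that left out 1 library, all but that without WT replicate 3 (adjusted p up to 0.142). The sums of the 4 markers were 1059 to 1118 CPM in WT and 1121 to 1141 CPM in KO. Most of these sums came from *Tcf7* (means of 772 CPM in WT and 832 CPM in KO). All KO libraries of *Il7r* lay below WT, and 2 of the 4 markers overlapped. No marker was at 0 in any library. *Xist*, the noncoding RNA of the inactive X chromosome, had means of 0.272 ± 0.132 CPM for WT libraries and 134.6 ± 10.4 CPM for KO libraries (SD, n = 3 each), with no overlap. The labels do not give the sex of the animals, and a difference in sex between the groups and the loss of Zfp335 cannot be told apart in any comparison given here. Several of the 10 genes are also used by B and myeloid cells, and the part of these cells in the results was not tested. In bulk samples, fewer cells of a type and less RNA per cell cannot be told apart.

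The 10 genes differed little between the KO and WT libraries, as did most genes at their level. Of them, 1 was higher (*Stat5a*) and 3 were lower in KO (*Socs2*, *Il2ra* and *Il2rg*), and every log2 fold change lay between -0.19 and 0.22. Among all 17307 genes tested, 24.1% were called, 12.0% as higher and 12.1% as lower. Among the 4259 genes with a mean level at or above that of the weakest of the 10 (50.9 CPM), a comparison added after the values were seen, 35.8% were called. The 4 calls among 10 genes were near the share at such levels, and nothing is read from their number. When a change of 1.5-fold or more was also required, with an unadjusted p under 0.05 and an adjusted p under 0.1, edgeR called 0 of the 10 genes. Of all genes, 6.95% met these cutoffs, 2.58% as higher and 4.37% as lower. Without a fold cutoff, 5 of the 10 genes were at an unadjusted edgeR p under 0.05, and DESeq2 and limma-voom each called 4 of the 10. WT and KO libraries did not overlap for 6 of the 10 genes, 2 with KO above WT and 4 with KO below, against 38.3% of all genes, 19.3% with KO above and 19.1% with KO below. The median log2 fold change of the 10 genes was -0.0070, and that of all genes tested was -0.0042. The median absolute log2 fold change was 0.15 over all genes tested and 0.082 over genes at 50.9 CPM or above.

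**Figure D1:**
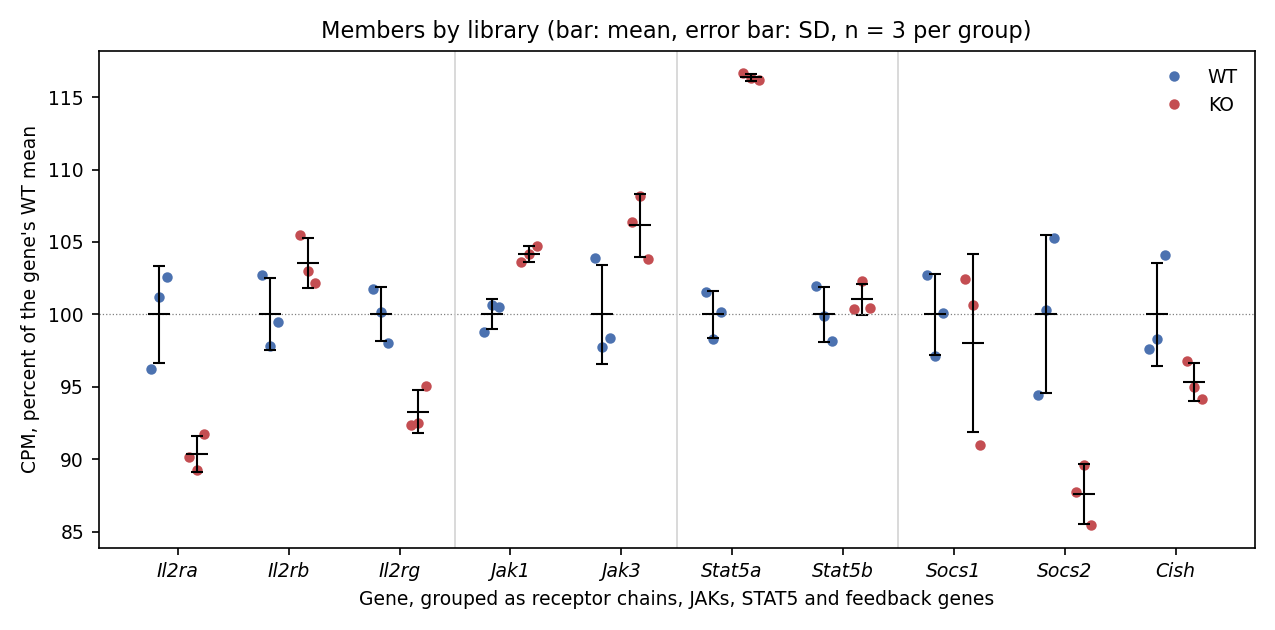
CPM of the 10 genes in each library, as a percent of the gene's WT mean (y axis, which starts above 0); blue points are WT libraries, red points are KO libraries, horizontal bars are means and error bars are SDs (n = 3). The KO libraries of *Stat5a* lie together above WT, and those of *Jak1*, which was not called, also lie above WT. The KO libraries of *Il2ra*, *Il2rg*, *Socs2* and *Cish*, the last not called, lie below WT.

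Levels per length were compared first among the 10 genes, with CPM divided by the kilobases of merged exons. In WT, *Il2rb* had the highest level (374 ± 9.26 CPM per kb, SD, n = 3), followed by *Il2rg* (286 ± 5.35), *Jak3* (118 ± 4.02), *Jak1* (111 ± 1.15), *Il2ra* (84.0 ± 2.81), *Stat5b* (64.4 ± 1.23), *Cish* (42.7 ± 1.51), *Socs1* (29.6 ± 0.830), *Stat5a* (25.6 ± 0.415) and *Socs2* (5.70 ± 0.311). WT libraries of neighbors in this order did not overlap. In KO the order was the same except for *Stat5a* (29.8 ± 0.0642) and *Socs1* (29.0 ± 1.82), which changed places and overlapped. *Stat5b* RNA was therefore above *Stat5a* RNA in both groups. The order of close neighbors depended on the length used: with the longest annotated transcript, *Il2rg* came above *Il2rb*, *Jak1* above *Jak3* and *Stat5a* above *Socs1* in WT.

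**Figure D2:**
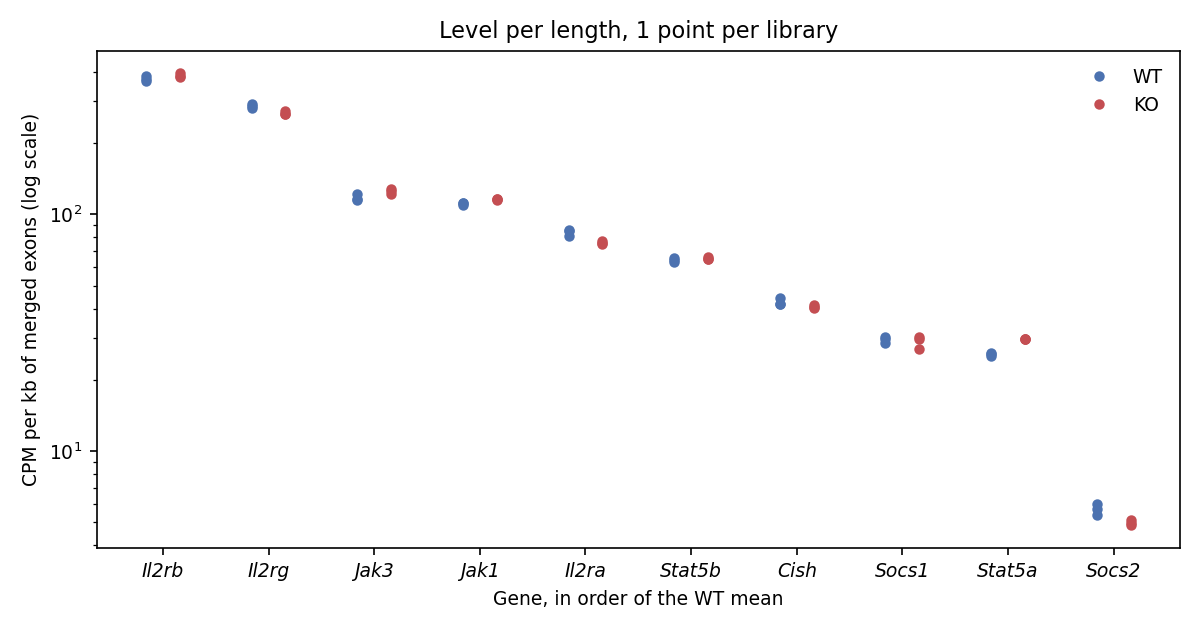
CPM per kb of merged exons on a log axis for the 10 genes in order of their WT mean, with 1 point per library (blue WT, red KO). From *Il2rb* at 374 to *Socs2* at 5.70 CPM per kb in WT, the genes differ far more from each other than KO differs from WT.

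Of the receptor chains, the α and γ chains fell and the β chain was not called. *Il2ra* lies on the plus strand of chromosome 2 of GRCm38 from 11642807 to 11693193. Its level was 461, 485 and 492 CPM in WT replicates 1, 2 and 3 and 432, 428 and 439.9 CPM in KO replicates 1, 2 and 3. All KO libraries lay below all WT libraries. The mean went from 479.6 ± 16.0 to 433 ± 5.99 CPM (SD, n = 3 each), a log2 fold change of -0.15 (SE 0.034, adjusted p = 0.00658) or a decrease of RNA to 0.904 times the WT level. The call was lost without KO replicate 2 (-0.14, adjusted p = 0.0523).

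*Il2rb*, which together with the γ chain carries the signal of both IL-2 and IL-15, lies on chromosome 15 from 78479256 to 78495271. It was the most abundant of the 10 genes also in CPM, with 1645, 1567 and 1594 CPM in WT and 1689, 1650.3 and 1636 CPM in KO. The groups overlapped. The log2 fold change was 0.050, with a 95% interval from -0.019 to 0.12 (adjusted p = 0.298).

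*Il2rg*, the common γ chain shared by the receptors for IL-2, IL-4, IL-7, IL-9, IL-15 and IL-21, lies on chromosome X from 101264378 to 101268255. It was at 696, 685 and 670.5 CPM in WT and at 632, 632 and 649.9 CPM in KO, so that the KO libraries lay below the WT libraries. The log2 fold change was -0.10 (SE 0.031, adjusted p = 0.0326). The call of *Il2rg* was lost in 4 of the 6 fits that left out 1 library (adjusted p = 0.115 when WT replicate 2 was left out, and 0.131, 0.151 and 0.0588 when KO replicate 1, 2 or 3 was left out). The GENCODE annotation places 30.5% of the exon bases of *Il2rg* also in exons of Gm20489 on the same strand. The count table has no row named Gm20489, and how reads from the shared bases were counted is not known. *Il2rg* is X-linked, and the part of the difference in *Xist* in its level was not tested.

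The balance between the receptor chains was compared within libraries. The log2 level of *Il2ra* minus that of *Il2rb* was -1.83, -1.69 and -1.70 in WT and -1.97, -1.95 and -1.90 in KO. Every KO library had less *Il2ra* relative to *Il2rb* than every WT library. The difference between the groups was -0.20 (two-sided exact permutation p = 0.1, adjusted p = 0.15 over 3 such comparisons), and 0.1 is the lowest p that 3 against 3 libraries can give.

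Neither kinase gene was called by edgeR, DESeq2 or limma-voom, and *Jak3* was at an unadjusted edgeR p of 0.0265. *Jak1*, whose kinase serves many cytokine receptors, lies on chromosome 4 from 101152367 to 101265282. It was at 795, 809.8 and 809 CPM in WT and at 834, 838 and 843 CPM in KO. The KO libraries of *Jak1* lay above the WT libraries, yet the log2 fold change of 0.059 had an interval that included 0 (-0.0045 to 0.12, adjusted p = 0.175). *Jak3*, whose kinase is attached to the common γ chain, lies on chromosome 8 from 71676296 to 71690575. It was at 655, 616 and 620.0 CPM in WT and at 671, 682 and 655 CPM in KO, and the groups overlapped through WT replicate 1. Exons of *Insl3* on the same strand cover 7.55% of the exon bases of *Jak3*. The log2 fold change of *Jak3* was 0.086 (adjusted p = 0.091), and without WT replicate 1 it was 0.11 (adjusted p = 0.00705). *Jak3* was not called under the other 17 of 18 alternatives, and was lowest with the GC trend removed (0.042, adjusted p = 0.437). The *Jak3* level minus the *Jak1* level did not separate the groups (-0.35 ± 0.064 in WT and -0.33 ± 0.035 in KO on the log2 scale, SD, n = 3 each, two-sided exact permutation p = 0.6).

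*Stat5a* rose and showed the largest change among the 10 genes, whereas *Stat5b* was not called. The products of these paralogs are closely related and both transmit IL-2 signals. *Stat5a* lies on the plus strand of chromosome 11 from 100859351 to 100885169, and *Stat5b* lies beside it on the minus strand from 100780731 to 100850724, so that their starts face each other at a distance of 8627 bases. *Stat5a* was at 185, 179.5 and 183 CPM in WT and at 213, 212 and 212 CPM in KO. The KO libraries varied little (SD 0.458 CPM) and lay well above WT. The log2 fold change was 0.22 (SE 0.031, adjusted p = 0.000199), which is 1.16 times the WT level, and *Stat5a* was called under all 18 alternatives run for it, with log2 fold changes from 0.19 to 0.23.

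*Stat5b* was at 364, 356 and 350.1 CPM in WT and at 358, 365 and 358 CPM in KO, with overlapping groups. Its log2 fold change was 0.015, with an interval from -0.052 to 0.082 (adjusted p = 0.785). Within libraries, the *Stat5a* level minus the *Stat5b* level on the log2 scale was -0.97, -0.99 and -0.94 in WT and -0.75, -0.78 and -0.76 in KO. The groups did not overlap, and the difference was 0.20 (two-sided exact permutation p = 0.1, adjusted p = 0.15 over the 3 comparisons). Of the 50-base stretches of *Stat5a* transcripts, 8.52% also occur in transcripts of other genes, *Stat5b* and *Stat3*, and 11% of those of *Stat5b* occur in *Stat5a*, so that some reads could have been assigned to either paralog.

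**Figure D3:**
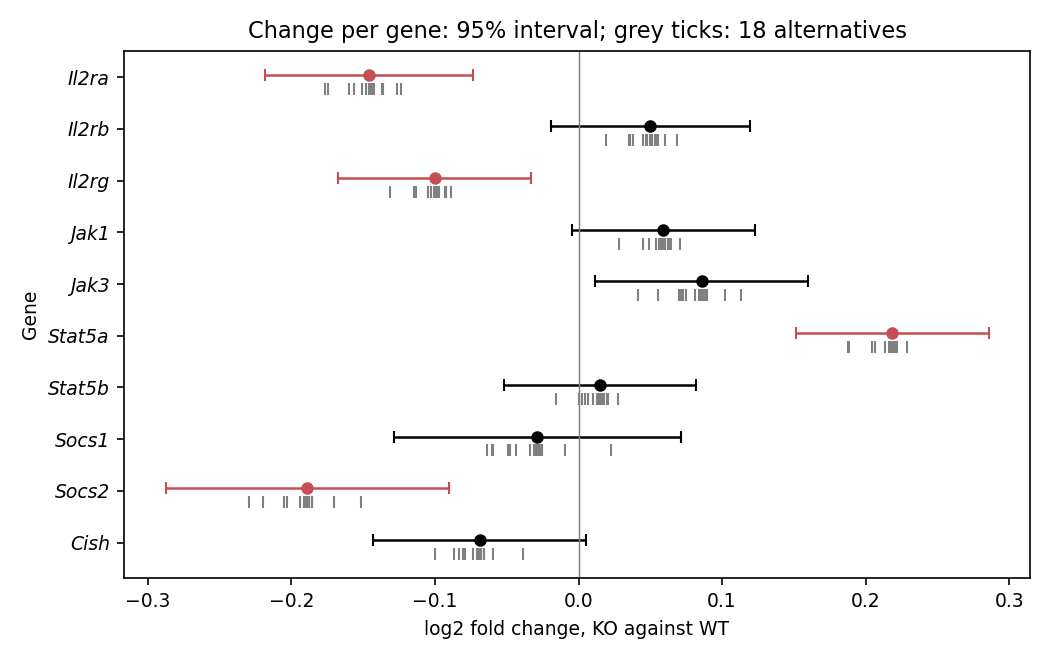
Log2 fold change of KO against WT for the 10 genes with the 95% interval of the edgeR fit (red where called, black where not), and grey ticks for the values under 18 alternative settings. *Stat5a* at 0.22 and *Socs2* at -0.19 lie farthest from 0, and all values of *Il2ra*, *Il2rg* and *Socs2* lie below 0.

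The feedback genes are induced by STAT5 and encode proteins that bind the activated receptor or its kinases and restrain the signal. *Cish* is a classical target of STAT5, and its RefSeq start is shown because it holds a pair of STAT5 motifs. The motif searched was TTCNNNGAA, which reads the same pattern on both strands, in windows of 250 bases before to 50 bases after each RefSeq start. It was found in 8.3% of 32851 windows and for 9.55% of 27025 genes. Of the 8 member genes with a window in RefSeq for GRCm38.p6, only *Cish* held it, and *Il2rb* and *Socs2* had none listed. The stretch at chr9:107296649-107296678 on the plus strand is printed with both motifs in capitals, 2 bases apart, the first beginning at the RefSeq start.
Cish: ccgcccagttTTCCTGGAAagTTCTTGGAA
A match is a description of the letters and does not show that STAT5 was bound in these cells. In the GENCODE annotation, where *Cish* begins at 107296026, both motifs lie within an exon.

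*Cish*, on chromosome 9 from 107296026 to 107302784, was at 267, 269 and 285 CPM in WT and at 265, 260.2 and 258 CPM in KO. The KO libraries lay just below the WT libraries, but the log2 fold change of -0.069 was not called (interval -0.14 to 0.0053, adjusted p = 0.175). With library totals in place of TMM, *Cish* was called (-0.10, adjusted p = 0.0489), and the median over all genes tested was then -0.035. *Cish* was not called under the other 17 of 18 alternatives, and was nearest to 0 without WT replicate 3 (-0.039, adjusted p = 0.435). Exons of Gm17041 and Gm17040 on the other strand cover 7.46% and 4.07% of its exon bases, and whether counting used the strand is not given in the sources used here. Gm17041 had between 9 and 411 counts per library, against at least 38370 for *Cish*.

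*Socs2*, which encodes an inhibitor best known from growth hormone signaling, lies on chromosome 10 from 95385362 to 95417180 and fell. It was at 51.3, 54.5 and 57.2 CPM in WT and at 47.6, 48.7 and 46.4 CPM in KO, without overlap. The mean went from 54.3 ± 2.96 to 47.6 ± 1.14 CPM (SD, n = 3 each), a log2 fold change of -0.19 (SE 0.046, adjusted p = 0.00888). Without KO replicate 3 the call was lost (-0.17, adjusted p = 0.0521). *Socs1*, the inhibitor that acts directly on JAK kinases and protects Tregs from inflammatory cytokines, lies on chromosome 16 from 10782240 to 10785536. It was at 88.4, 83.6 and 86.2 CPM in WT and at 88.2, 86.6 and 78.3 CPM in KO, and the groups overlapped. Its log2 fold change was -0.029 (interval -0.13 to 0.071, adjusted p = 0.715), and its sign turned without KO replicate 3 (0.023).

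The genes whose profiles over the 6 libraries were nearest to those of *Il2ra* and *Cish* were sought among 8647 other genes with a mean of at least 10 CPM. The measure was the root mean square difference of log2 CPM after centering each gene on its mean. Nearest to *Il2ra* were 1810030O07Rik (0.0086), *Dnajc7* (0.0089) and *Rtn3* (0.0091), with log2 fold changes of -0.13, -0.16 and -0.15. Nearest to *Cish* were *Tmem64* (0.0097), *Bscl2* (0.011) and *Prkar2a* (0.012), with log2 fold changes of -0.066, -0.062 and -0.046. Selection by nearest profile itself brings similar log2 fold changes, so these values are no separate result. None of the other 9 genes was among the nearest profiles named. Within the 10 genes, the nearest pair was *Il2rb* and *Jak3* (0.027), and the nearest profile to *Il2ra* was that of *Socs2* (0.043).

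Other cytokines and receptors of the common γ chain were then examined. Of 11 genes, 9 passed the filter, of which 2 rose, 1 fell and 6 were not called (median log2 fold change 0.14). The share called over all genes tested was 24.1%. *Il9r*, the α chain of the IL-9 receptor, was at 31.8, 32.1 and 31.7 CPM in WT and at 24.4, 23.9 and 24.4 CPM in KO, a fall of all KO libraries below WT. Its log2 fold change was -0.40 (SE 0.043, adjusted p = 2.14e-05). *Il21*, a cytokine of helper T cells, rose by 0.41 from 6.89 ± 0.790 to 9.06 ± 0.710 CPM (SD, n = 3 each, adjusted p = 0.00524), and its receptor *Il21r* rose by 0.14 (adjusted p = 0.00617). *Il2* was near 1 CPM, with 0.901, 0.892 and 1.47 CPM in WT and 1.41, 1.80 and 1.43 CPM in KO, and was not called (log2 fold change 0.57, adjusted p = 0.0655). The filter was not passed by *Il7* and *Il9*.

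Among the 7 other JAK and STAT genes, 2 rose, 2 fell and 3 were not called (median -0.045). The share called was 24.1% over all genes tested and 35.8% over genes at 50.9 CPM or above. *Stat2*, a STAT factor of interferon signaling, fell by 0.29 on the log2 scale (WT mean 138 ± 0.482, KO mean 113 ± 1.15 CPM, SD, n = 3 each, adjusted p = 2.09e-05). *Jak2* rose by 0.18 (adjusted p = 0.00289). *Stat3* is named because its exons share 72 bases with those of *Stat5a* on the opposite strand, and it rose by 0.096 (348 ± 5.61 to 372 ± 5.46 CPM, SD, n = 3 each, adjusted p = 0.0388). The call of *Stat3* was lost under 7 of 18 alternatives, among them the 4 fits without WT replicate 2 or KO replicate 1, 2 or 3 (adjusted p up to 0.159), whereas *Jak2* and *Stat2* were called under all 18.

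Of 16 further inhibitors of JAK-STAT signaling, 6 rose, 3 fell and 7 were not called (median 0.066). The share called was 24.1% over all genes tested and 35.8% over genes at 50.9 CPM or above. These inhibitors include SOCS proteins, phosphatases, PIAS proteins and CBL ubiquitin ligases. *Socs3*, an inhibitor of STAT3 signaling by the IL-6 family of cytokines, was at 283, 266 and 275 CPM in WT and at 349.8, 336 and 336 CPM in KO. All KO libraries lay above WT, and the log2 fold change was 0.31 (SE 0.034, adjusted p = 2.4e-05). *Socs6* rose by 0.20 (adjusted p = 0.00965, and 0.0524 without KO replicate 2) and *Socs4* fell by 0.29 (adjusted p = 0.00147). With 1 library left out, between 3 and 9 of these genes were called. Leaving out WT replicate 2 gave 4 calls, and leaving out KO replicate 2 or 3 gave 3 and 5 calls. Within the SOCS family, *Socs2* and *Socs4* fell, *Socs3*, *Socs6* and *Socs7* rose, and *Socs1*, *Socs5* and *Cish* were not called. *Socs5* was at a log2 fold change of 0.041 and *Socs7* at 0.15 (adjusted p = 0.0227), both named after their values were seen. The call of *Socs7* was lost under 6 of 18 alternatives, among them 5 of the 6 fits that left out 1 library, all but that without WT replicate 1 (adjusted p up to 0.0931).

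Of 17 further target genes of STAT5, 9 rose, 5 fell and 3 were not called (median 0.12). The share called was 24.1% over all genes tested and 35.8% over genes at 50.9 CPM or above. This list was chosen with earlier results of these data known, so nothing is read from its count. With 1 library left out, between 11 and 15 of these genes were called. *Ctla4* rose from 401, 411 and 419 CPM in WT to 646, 636 and 654 CPM in KO, a log2 fold change of 0.65 (SE 0.032, adjusted p = 9.56e-09). *Osm*, which encodes oncostatin M, was at 26.3, 24.3 and 25.2 CPM in WT and at 16.2, 16.7 and 16.7 CPM in KO. *Osm* fell by 0.61 (SE 0.052, adjusted p = 1.89e-06), and *Gzmb*, which encodes the cytotoxic protease granzyme B, fell by 0.57 (adjusted p = 2.06e-06). The other genes of this list given here were named after their values were seen. *Pim1*, a kinase gene induced by cytokines, rose by 0.47 (adjusted p = 8.14e-07), and *Bcl6*, which STAT5 represses, rose by 0.34 (adjusted p = 0.000108). Of the cyclin D genes, which act in the cell cycle, *Ccnd2* fell by 0.22 (adjusted p = 0.000217) and *Ccnd3* rose by 0.15 (adjusted p = 0.00309). *Myc*, a transcription factor of growth, fell by 0.18 (adjusted p = 0.00333). Of the survival genes, *Bcl2* rose by 0.16 (adjusted p = 0.00199) and *Bcl2l1* by 0.25 (adjusted p = 0.000361), and *Mcl1* was not called (-0.010, adjusted p = 0.854). The genes named from this list thus changed in both directions, and they also respond to other signals. The list holds *Bcl6*, which is repressed, beside induced genes, so these directions are not read as a measure of STAT5 activity.

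Of the 15 genes for receptor adaptors and the PI3K arm of IL-2 signaling, 0 were called by edgeR, DESeq2 or limma-voom, and 1 (*Akt2*, log2 fold change 0.095, adjusted p = 0.0805) was at an unadjusted edgeR p under 0.05. The median was 0.038. The share called was 24.1% over all genes tested and 35.8% over genes at 50.9 CPM or above. The most abundant were *Lck*, the kinase of the T cell coreceptors (WT mean 1072 ± 15.7, KO mean 1051 ± 19.4 CPM, SD, n = 3 each, log2 fold change -0.029), *Pik3cd*, the leukocyte PI3K catalytic subunit (0.0086), and *Pik3r1*, a PI3K regulatory subunit (-0.031). Without WT replicate 1, *Shc1* (0.12) and *Akt2* (0.13) were called.

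**Figure D4:**
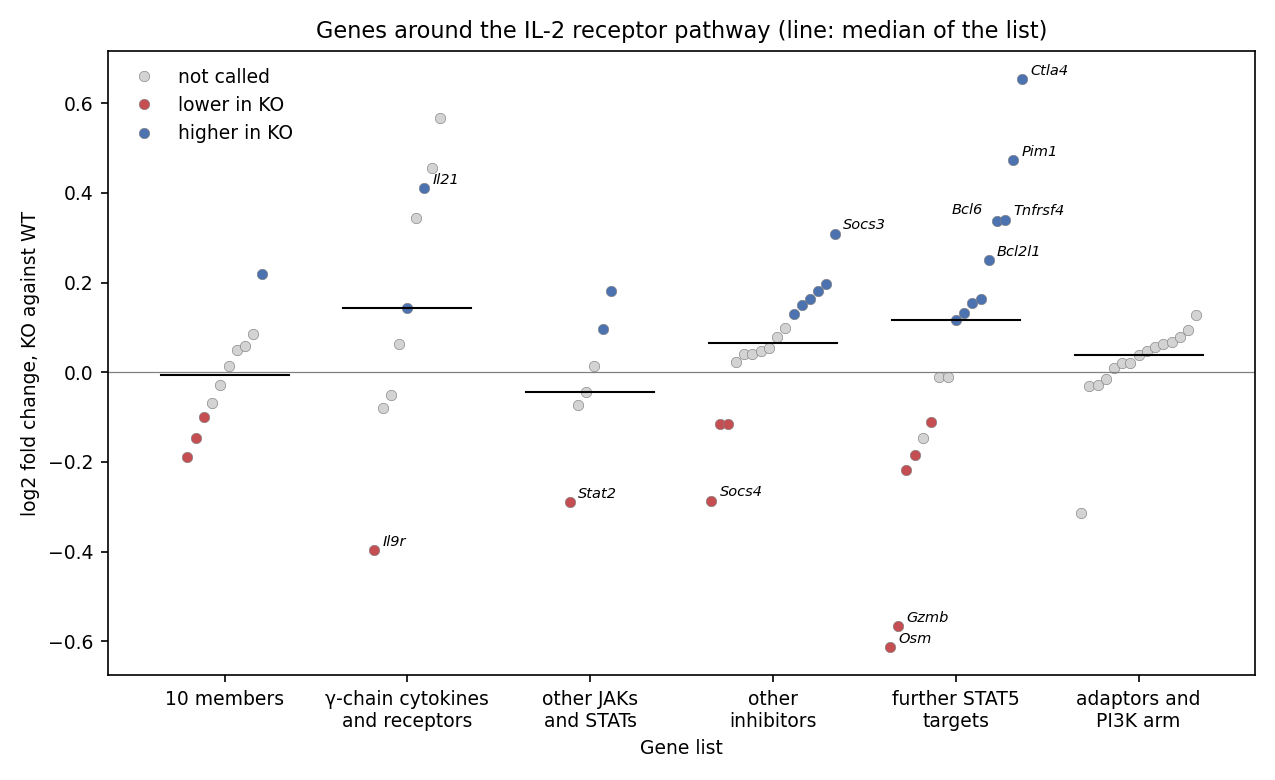
Log2 fold change of KO against WT (y axis) for the tested genes of 6 lists (x axis), in blue where higher, in red where lower and in grey where not called, with the median of each list as a line. The 10 members lie between -0.19 and 0.22, and the further STAT5 targets reach from *Osm* (-0.61) to *Ctla4* (0.65).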

How the data were processed

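The deposited table held whole-number read counts for each gene symbol, not normalized by the authors, in 3 WT and 3 KO libraries. HISAT2, DESeq2 and mm10 are named in the submitters' processing notes; the counting tool and its strand setting are not given in the sources used here. The row with the most counts kept a repeated symbol (40 of 32285 rows). Groups and replicate numbers came from sample titles. WT and KO were compared with the quasi-likelihood test of edgeR 4.0.16 (R 4.3.3, robust, newer method, TMM, filterByExpr), with Benjamini-Hochberg adjustment over 17307 genes; a gene was called at an adjusted p under 0.05. Standard errors were derived from the F statistic. CPM used TMM-scaled library sizes, and log2 CPM a prior count of 2. The procedure was tested on simulated data. Positions, lengths and shared stretches came from GENCODE M21 (GRCm38) and start windows from RefSeq. The members and gene lists were chosen with earlier results of these data known. Named genes were *Zfp335*, *Xist*, the members, the 3 called genes with the largest change in each pathway list (filled up by abundance), the extremes of each marker list and the nearest profiles; 1 gene that the rule names is neither reported nor plotted here. The values were recomputed with other scalings, with DESeq2 1.42.0 and limma-voom (limma 3.58.1), with the legacy method, other filters, the replicate number as a block, removal of abundant gene families, the study's cutoffs and leaving out each library; removal of GC and length trends was added after the data were seen.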

Additional observations from a re-analysis of the deposited data

How the results depend on the processing

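Of 180 values of the 10 genes under alternatives, 170 kept their direction and side of the threshold, 6 lost the call, 2 gained it and 2 turned sign. The calls of *Il2ra*, *Il2rg* and *Socs2* were lost only in fits without 1 library; *Stat5b* turned with library totals (-0.016) and *Socs1* without KO replicate 3 (0.023, against -0.060 at the lowest with another library left out). With library totals, 1622 genes were higher and 2575 lower, against 2082 and 2088 with TMM. Deviations from the group means were nearly uncorrelated between libraries with the same number (r = 0.0284, 0.0082 and 0.0326 across genes). The mean r was 0.023 for the same number and -0.012 for other numbers. With so few libraries, these values cannot show whether libraries with the same number shared an animal, litter or day. With the replicate block, 4 of the 10 genes and 4227 of all genes were called, *Stat5a* was at 0.22, and no call among the 10 genes changed. Leaving out each library gave 2 to 5 of the 10 genes (2 without KO replicate 2 or KO replicate 3), 2740 to 4996 of all genes (2740 without WT replicate 2), 3 to 9 further inhibitors, 0 to 2 adaptor and PI3K genes and 1 to 4 Treg and T cell markers (1 when each KO replicate in turn was left out). The study's cutoffs gave 0 of the 10 genes, 1203 of all genes, 0 γ-chain genes, 0 other JAK and STAT genes, 0 further inhibitors, 2 further STAT5 targets and 1 Treg and T cell marker. The cause was not tested. Differences within libraries kept their sign: *Stat5a* minus *Stat5b* from 0.19 to 0.22, *Il2ra* minus *Il2rb* from -0.24 to -0.17 and *Jak3* minus *Jak1* from 0.0062 to 0.064. With 3 libraries per group, the calls of *Il2ra*, *Il2rg*, *Socs2* and *Jak3* depended on single libraries, and that of *Stat5a* did not.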

Other observations

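Protein-coding genes within 100000 bases of *Stat5a* and of *Il2ra* were examined after the values were seen. The share called over all genes tested was 24.1%, and nothing is read from the counts of neighbors called. Beside *Stat5a*, only *Stat3* was called (log2 fold change 0.096, a call lost under 7 of 18 alternatives) among the 5 neighbors that passed the filter; *Ghdc* was at 0.24 (adjusted p = 0.0784), *Kcnh4* at 0.11, *Cavin1* at -0.12 and *Stat5b* at 0.015. Beside *Il2ra*, *Il15ra*, which encodes the α chain of the IL-15 receptor and begins 12097 bases from its end, was at -0.052 (WT mean 12.5 ± 0.407, KO mean 12.1 ± 1.03 CPM, SD, n = 3 each, adjusted p = 0.664). Of the 5 neighbors of *Il2ra* that passed the filter, 1 was called, *Ankrd16* (0.16, adjusted p = 0.0283, lost under 6 of 18 alternatives, among them the fits without WT replicate 3 or each KO replicate, with adjusted p up to 0.0969), and its change was opposite in sign to that of *Il2ra*.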
